A study of Mus musculus with 6 samples.

Results

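The genes described here encode 10 proteins of nuclear speckles in mouse embryonic stem cells, and the measurement is the accessible chromatin at and around them. Son and Srrm2 encode the large scaffold proteins of the speckle, and Srsf1, Srsf2, Srsf3, Srsf4, Srsf5, Srsf6, Srsf7 and Srsf11 encode splicing factors of the SR family. Accessible regions were taken as theirs when the midpoint of the region lay inside the gene or within 50 kb of its annotated limits on mm10. By this rule 113 of the 69689 regions in the series belonged to the 10 genes, and no region belonged to more than 1 of them.

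The assay, ACC-seq, uses the Tn5 transposase to cut and tag open DNA and was run on 6 libraries of wild-type R1 cells, an established mouse embryonic stem cell line. Fresh cells (n = 2) were tagmented without fixation at 37 °C, Fix cells (n = 2) were held in 1% formaldehyde for 10 min and tagmented at 55 °C, and Fix, 1,6-Hex cells (n = 2) were treated like Fix cells except for 30 s in 1,6-hexanediol (10%, w/v) ahead of the formaldehyde step, which then contained the same share of it. This small alcohol dissolves many condensates. All cells were grown on embryonic fibroblast feeders with serum, LIF and 2 kinase inhibitors, and the feeders were removed by replating. The deposited table gives the position of each region and the name of 1 of 9 clusters. It has no value per library, so no treatment could be compared with another and depth cannot be given. The sources used here do not say which accessibility pattern a cluster name stands for. A cluster name below is a label of the authors, with no direction attached to it, and every count is a description that carries no test. The stem cell label was checked by position alone. An accessible region lay within 1 kb of a gene limit at 5 of 5 stem cell markers (Pou5f1, Sox2, Nanog, Klf4 and Zfp42) and at 4 of 5 fibroblast markers (Col1a1, Col1a2, Thy1 and Pdgfrb, but not Col3a1), against 60.9% of protein-coding genes. The presence of a region therefore does not separate the 2 cell types. The cluster names at these limits did differ. They were 4 (Pou5f1), 8 (Sox2), 6 (Nanog and Klf4) and 5 and 7 (Zfp42), against 1 (Col1a1, Thy1 and Pdgfrb) and 9 (Col1a2). Since the pattern behind a cluster name is not given, no cell type was read from them. Whether feeder DNA contributed to any region was not tested.

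Nuclear speckles are membraneless bodies rich in splicing factors and polyadenylated RNA, and SON and SRRM2 hold them together. SR proteins bind exonic RNA through RNA recognition motifs and recruit the spliceosome through arginine- and serine-rich tails, whose phosphorylation by SRPK and CLK kinases moves them between speckles and sites of transcription. Most cells express SR protein genes at all times, and many of these genes hold conserved exons that send their own transcripts to decay.

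The promoters of 6 of the genes are shown because their starts all lay in an accessible region while the authors placed these regions in 4 different clusters. Each stretch runs from 150 bases before the first annotated start to 25 bases from the start on, in the direction of the gene, with the sequence and the start taken from RefSeq on GRCm38.p6, the assembly that mm10 names. Capitals mark matches, on either strand, to 7 short motifs listed after the sequences. Srsf3 (chr17:29032510-29032684, plus strand) lay in a cluster 2 region. Srsf2 (chr11:116853070-116853244, minus strand) and Son (chr16:91647674-91647848, plus strand) lay in cluster 3 regions. Srsf5 (chr12:80945349-80945523, plus strand) and Srsf6 (chr2:162931358-162931532, plus strand) lay in cluster 4 regions, and Srsf4 (chr4:131873487-131873661, plus strand) lay in a cluster 8 region.
Srsf3: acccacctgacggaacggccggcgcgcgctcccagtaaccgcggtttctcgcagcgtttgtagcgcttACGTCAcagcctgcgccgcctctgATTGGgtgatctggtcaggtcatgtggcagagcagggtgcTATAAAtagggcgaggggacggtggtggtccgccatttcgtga
Srsf2: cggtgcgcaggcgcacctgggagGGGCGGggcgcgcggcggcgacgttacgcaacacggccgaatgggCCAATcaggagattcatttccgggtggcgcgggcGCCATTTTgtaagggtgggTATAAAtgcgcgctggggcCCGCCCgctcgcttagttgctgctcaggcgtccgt
Son: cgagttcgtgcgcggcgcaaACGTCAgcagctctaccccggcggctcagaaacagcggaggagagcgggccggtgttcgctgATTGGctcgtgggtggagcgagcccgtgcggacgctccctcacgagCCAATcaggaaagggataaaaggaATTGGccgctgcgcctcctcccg
Srsf5: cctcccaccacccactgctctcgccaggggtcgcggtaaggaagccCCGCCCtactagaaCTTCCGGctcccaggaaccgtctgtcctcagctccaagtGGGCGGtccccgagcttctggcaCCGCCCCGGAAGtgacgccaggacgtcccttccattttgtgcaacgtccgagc
Srsf6: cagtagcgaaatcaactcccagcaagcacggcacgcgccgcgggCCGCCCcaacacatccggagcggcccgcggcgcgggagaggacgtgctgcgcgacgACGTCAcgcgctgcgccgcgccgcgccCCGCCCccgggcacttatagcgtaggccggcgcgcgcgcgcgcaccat
Srsf4: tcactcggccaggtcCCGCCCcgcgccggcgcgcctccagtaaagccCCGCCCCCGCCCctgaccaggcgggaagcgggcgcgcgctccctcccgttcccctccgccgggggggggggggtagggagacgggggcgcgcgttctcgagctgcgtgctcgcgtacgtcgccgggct

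The motifs were the TATA box core (TATAAA), the CCAAT box (CCAAT), the GC box (GGGCGG), the core of the cyclic AMP response element (TGACGT), the core of the ETS factor site (CCGGAAG), the core of the NRF1 site (GCATGCGC) and that of the YY1 site (GCCATNTT). They were searched on both strands in the whole RefSeq window of 250 bases before to 50 bases after the first start, overlaps between motifs were allowed, and the motifs were chosen after the member sequences had been seen. For comparison, the same windows were searched at 17492 protein-coding genes, of which 10436 had the first start in an accessible region. A match is a match of letters only.

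A TATA box core stood in the promoters of Srsf2 and Srsf3, 2 of the 10 genes, against 6.19% of the promoters in accessible regions and 13.3% of all promoters. It began 29 bases before the start in Srsf2 and 18 bases before the start in Srsf3. Both also held a CCAAT box, which began 82 bases before the start in Srsf2 and, on the opposite strand, 58 bases before it in Srsf3. CCAAT was found in 4 of 10 windows (Son, Srsf1, Srsf2 and Srsf3), close to the 39.7% of accessible promoters. The cyclic AMP response element core stood in 4 windows (Son, Srsf3, Srsf6 and Srsf11), against 12.2% of accessible promoters. The ETS core also stood in 4 (Srsf4, Srsf5, Srsf7 and Srsf11), against 18.3%. Srsf5 held the ETS core in both orientations, 90 and 23 bases before the start. GC boxes were the most frequent, in 7 of 10 windows against 69.4% of accessible promoters. The NRF1 core occurred in Srsf7 and the YY1 core in Son and Srsf2, against 5.62% and 8.48%. The window of Srrm2 held none of the 7 motifs.

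The promoters were also rich in CpG dinucleotides. The ratio of observed to expected CpG in these 300-base windows ran from 0.800 in Srsf11 and 0.860 in Srsf5 to 1.21 in Srsf3 and 1.23 in Srsf6, with a median of 0.978. Over all coding promoters with the start in an accessible region the median was 0.780 (quartiles 0.618 and 0.918), and over those with the start in no region it was 0.183. All 10 values thus lay above the median of accessible promoters, and 7 of 10 lay above its upper quartile. The G and C content ran from 56.0% in Srsf5 to 77.7% in Srsf4, with a median of 65.2% against 62.0% for accessible promoters. Srsf4, the gene of the cluster 8 region, had the highest G and C content of the 10 and 49 CpG dinucleotides, the most of any member. Over all coding promoters in regions, the median G and C content was 62.3% in each of clusters 2, 3, 4 and 8. By cluster, the median ratio at promoters was 0.820 for both cluster 2 and cluster 3, 0.810 for cluster 4 and 0.780 for cluster 8, the 4 clusters of the members' starts. It was lower in the others, from 0.759 in cluster 1 to 0.563 in cluster 7.

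**Figure D1:**
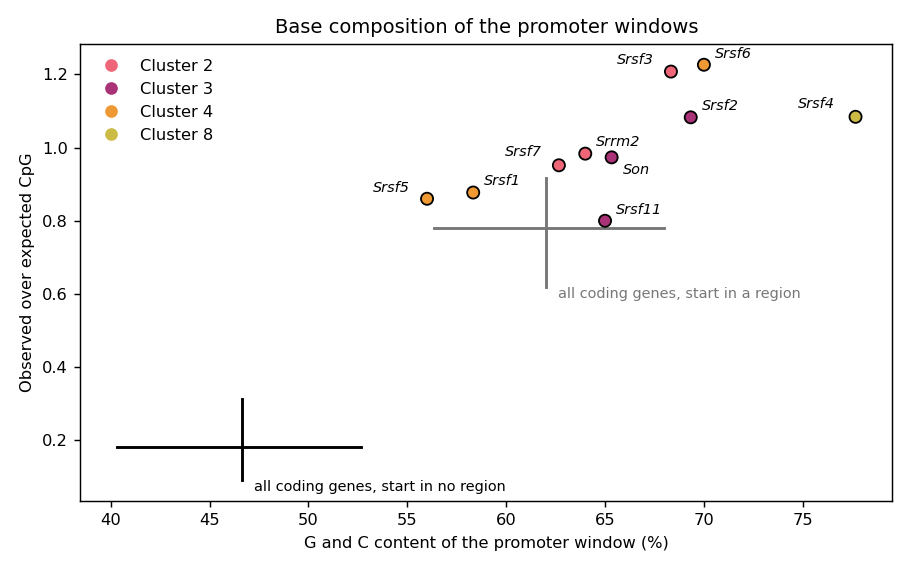
Base composition of the 300-base RefSeq promoter window of each of the 10 genes (points, coloured by the cluster of the region over the first start), with the share of G and C in percent on the x axis and the ratio of observed to expected CpG on the y axis. Crosses mark the median and quartiles over all coding promoters with the first start in an accessible region (grey) or in none (black), and all 10 genes lie above the grey median of 0.780.

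All 10 genes had an accessible region over an annotated start, and in 9 of them that region belonged to cluster 2, 3 or 4. Among 17492 protein-coding genes with an annotated start, 61.4% had a region over it, and among the 10740 that did, 40.9% had one in cluster 2, 3 or 4. The exact binomial 95% interval of 9 of 10 is 55.5% to 99.7%. It covers counting error over genes only. The remaining gene was Srsf4, in cluster 8, the most frequent cluster over starts in general at 24.6%. Cluster 2 was found over the starts of 3 genes (Srrm2, Srsf3 and Srsf7) against 10.5% of genes with a region there, cluster 3 over 3 (Son, Srsf2 and Srsf11) against 15.7%, and cluster 4 over 4 (Srsf1, Srsf5, Srsf6 and the second start of Srsf11) against 15.0%. No start lay in a region of cluster 1, found over 18.1% of the starts with a region, nor of cluster 5 (4.93%), 6 (6.04%), 7 (2.97%) or 9 (5.12%). For single clusters, each exact binomial 95% interval over the 10 genes contained the general share. It was 12.2% to 73.8% for cluster 4 and 0 to 30.8% for cluster 1. That clusters 2, 3 and 4 lie mostly at gene ends was known from earlier results of these data when they were grouped.

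By their median, the 11 regions over these starts were wider than start regions in general. Their median width was 1900 bp (range 1051 to 3529 bp), against 1176.5 bp over the 10240 regions that hold a coding start (quartiles 828 and 1730 bp) and 515 bp for the 102 remaining regions around the 10 genes. The widest lay at Srsf5 (3529 bp, wider than 96.0% of start regions), Srsf2 (2790 bp, 92.3%), Son (2392 bp, 88.2%) and Srsf1 (2367 bp, 87.8%). Srsf11 was the exception, with 1051 bp over its first start (41.2%). Wide start regions were not particular to the 10 genes. Those of the hnRNP genes listed below were 1393 to 5040 bp wide. Those of the other SR and SR-like genes were 755 to 2637 bp wide. A wider region reaches a start more easily, and the same holds for the genes it is compared with.

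**Figure D2:**
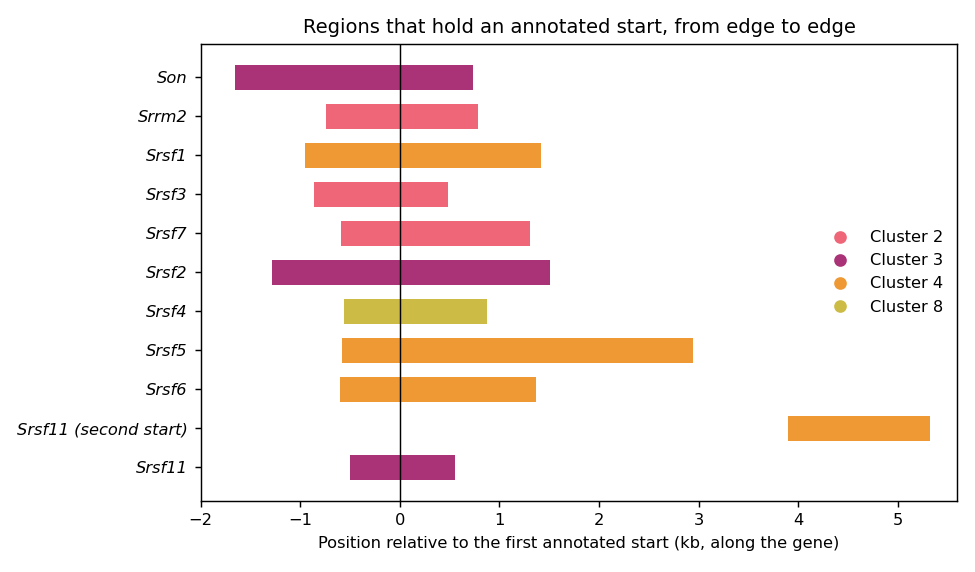
Extent of the 11 accessible regions that hold an annotated start of the 10 genes, in kb along the gene from its first annotated start (vertical line), coloured by cluster. The region of Srsf5 reaches 2948 bases into the gene and that of Son 1654 bases before the start, and Srsf11 has a second region over a second start.

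Among the speckle scaffolds, Son (chromosome 16, 91647824 to 91679192, plus strand) had a cluster 3 region at 91646170 to 91648561, which extended 1654 bases before the start and 737 bases after it. The region also held a start of Gart, an enzyme gene of purine synthesis on the other strand. Its other 7 regions belonged to clusters 1, 2, 6, 8 and 9. The closest, a cluster 6 region of 378 bp, lay inside the gene 13.8 kb from the start. Srrm2 (chromosome 17, 23790527 to 23824741, plus strand) had 18 regions, more than 95.6% of protein-coding genes. Its cluster 2 region at 23802445 to 23803974 held both annotated starts and a start of the predicted gene Gm52285. These starts lie 12.7 kb inside the annotated limits, so this region was not at a gene limit. The region at the outer limit, 1447 bp wide at 23789745 to 23791191, belonged to cluster 7. Cluster 1 was the most frequent around Srrm2 with 7 of 18 regions, 2 of them inside the gene.

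Srsf1, Srsf3 and Srsf7 encode SR proteins that shuttle to the cytoplasm and take part in mRNA export as well as splicing. Srsf1 (chromosome 11, 88046499 to 88053757, plus strand) had a cluster 4 region at 88046423 to 88048789, with 950 bases before the start and 1416 after it. A second cluster 4 region of 1432 bp lay 18.4 kb before the gene, over no annotated start. Of its 13 regions 4 belonged to cluster 9, 3 to cluster 7 and 3 to cluster 1. Srsf3 (chromosome 17, 29032660 to 29043372, plus strand) had the most regions of the 10 genes, 21, which is more than 98.2% of protein-coding genes, and they came from all 9 clusters. Its start lay in a cluster 2 region at 29031797 to 29033141, together with a start of Gm16196. This gene is a neighbour of Cdkn1a, the cell cycle inhibitor p21, and of Trp53cor1, the long noncoding RNA lincRNA-p21, and regions at their ends count among the 21. A cluster 7 region of 4530 bp lay 24.1 kb past the gene, wider than 99.9% of cluster 7 regions, whose median is 345 bp. Srsf7 (chromosome 17, 80200080 to 80207369, minus strand) had a cluster 2 region of 1900 bp at 80205995 to 80207894, with 589 bases before the start and 1310 after it. Cluster 6 was the most frequent around it, with 3 of 11 regions.

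Srsf2 encodes SC35, the SR protein whose name became that of the speckle stain. The gene (chromosome 11, 116849897 to 116853675, minus strand) is the shortest of the 10 at 3.78 kb. A single cluster 3 region at 116851585 to 116854374 covered its start, 1280 bases before it and 1509 bases after it, and also held a start of Mfsd11 on the other strand. Of its 10 regions 3 belonged to cluster 1, and a cluster 2 region of 1486 bp stood 6.43 kb past the gene over starts of Jmjd6, a hydroxylase known to act on splicing factors, and of Mettl23.

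Srsf4, Srsf5 and Srsf6 encode closely related SR proteins with a pair of RNA recognition motifs. Their starts differed in cluster. Srsf5 (chromosome 12, 80945495 to 80950507, plus strand) and Srsf6 (chromosome 2, 162931508 to 162937121, plus strand) had cluster 4 regions, at 80944919 to 80948447 and 162930906 to 162932872, which reached 2948 and 1364 bases past the start. Srsf4 (chromosome 4, 131873530 to 131901725, plus strand) had a cluster 8 region of 1437 bp at 131873073 to 131874509 that held all 3 of its annotated starts. Cluster 6 held 3 of 10 regions at Srsf6, 1 of 8 at Srsf5 and 0 of 10 at Srsf4, against 12.1% of all regions within 50 kb of a protein-coding gene. A difference between such small counts was not tested. A cluster 9 region of 3857 bp lay 18.7 kb past Srsf4, over starts of Tmem200b and Gm12992, and was wider than 99.9% of cluster 9 regions (median 292 bp).

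Srsf11 encodes a less studied SR-related protein that binds the splicing factor U2AF65. The gene (chromosome 3, 158010915 to 158036667, minus strand) had the fewest regions, 4, and 2 of them lay over its own starts. The first start lay in a cluster 3 region at 158036057 to 158037107 that also held a start of Lrrc40. The second lay in a cluster 4 region at 158031279 to 158032706, centred 4.61 kb into the gene. The next region was 32.2 kb from the first start.

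Starts shared with a neighbouring gene on the other strand were set beside those that were not. The 5 regions shared in this way (Son, Srrm2, Srsf2, Srsf3 and the first start of Srsf11) belonged to cluster 2 in 2 cases and cluster 3 in 3 cases. The 6 others belonged to cluster 4 in 4 cases, to cluster 2 at Srsf7 and to cluster 8 at Srsf4. The division rests on annotated starts only. A limit of Gemin6 lay within 1 kb of the midpoint of the Srsf7 region, which held no annotated start of Gemin6. Over the genome, clusters 2, 3 and 4 together held 52.2% of the start regions shared in this sense and 34.8% of the others, against 5 of 5 and 5 of 6 member regions. The members' division between cluster 4 and clusters 2 and 3 was not seen there, since cluster 4 was also more frequent at shared starts. Of 1754 start regions with starts of different genes on both strands, 18.5% belonged to cluster 4, 16.2% to cluster 2 and 17.4% to cluster 3. Of the 8486 other start regions, 12.9% belonged to cluster 4, 7.80% to cluster 2 and 14.0% to cluster 3.

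The 3′ side of several SR genes carried small regions of cluster 6. A cluster 6 region had its midpoint within 2 kb past the 3′ limit of Srsf2 (398 bp wide, 1.70 kb past), Srsf5 (264 bp, 1.16 kb past) and Srsf7 (535 bp, 0.668 kb past). This is 3 of 10 genes, against 1.54% of 17492 protein-coding genes. Any region lay there at 4 of 10 genes against 13.0%, the fourth being Srsf1 with a cluster 1 region of 1169 bp. Among genes with a region there, cluster 6 held it at 3 of these 4 and at 11.9% in general. Within 5 kb on either side of the 3′ limit, Srsf6 joined them with regions of 241 and 200 bp, giving 4 of 10 against 5.75%. None of the 13 cluster 6 regions around the 10 genes lay over an annotated start of any gene. The windows were chosen after the positions had been seen, and the count of 3 became 1 (Srsf7) with a window of 1 kb, against 0.743% of genes.

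**Figure D3:**
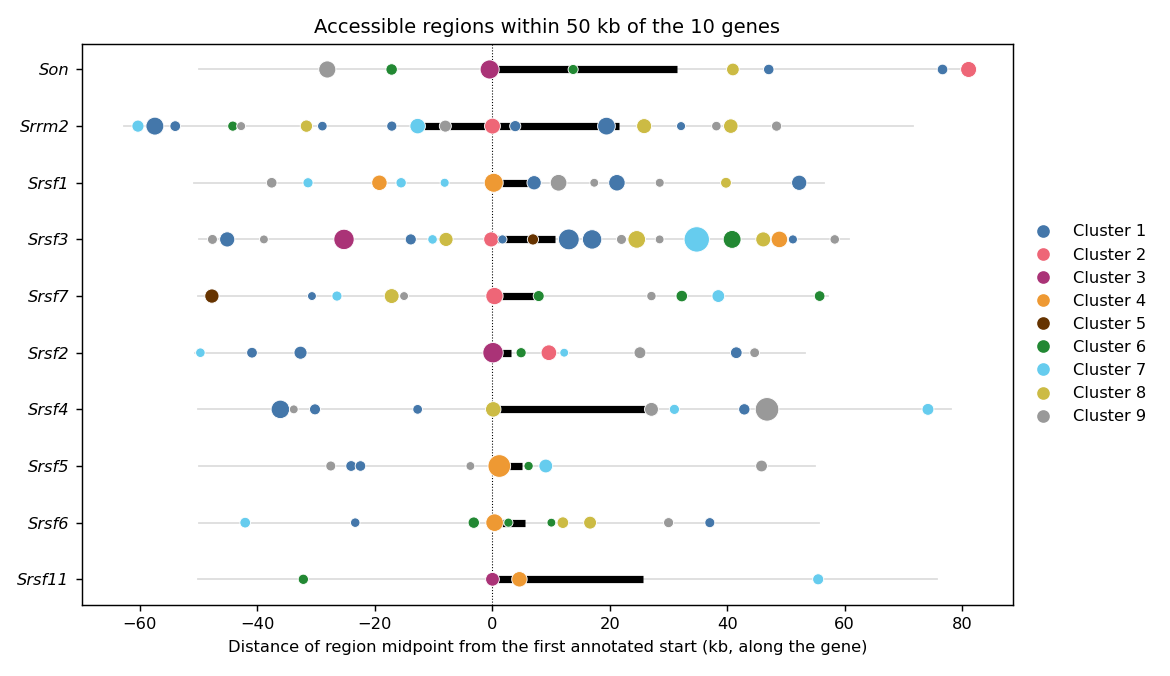
Accessible regions around the 10 genes (rows), placed by their midpoint in kb along the gene from the first annotated start (dotted line). Points are regions coloured by cluster with area growing with width, black bars are genes and grey lines the 50 kb on either side; points at 0 belong to clusters 2, 3 and 4 in every row but that of Srsf4.

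In the wider surroundings the cluster shares lay near those around other genes, while regions were more numerous than around protein-coding genes at large. Each gene had 4 to 21 regions within 50 kb (median 10), against a median of 7 (quartiles 3 and 11) over 21887 protein-coding genes. The number was not particular to the 10 genes. Medians ran from 8.5 to 15 in the 5 lists of other splicing genes described below. They were 11 for the stem cell markers and 10 for the fibroblast markers. Per 100 kb of window the median was 9.55 against 4.74. The members were 3.78 to 34.2 kb long, and 6 of 10 were shorter than the median protein-coding gene of 17.2 kb. Of the 113 regions, 17 had their midpoint inside a gene, 45 before it and 51 past it. Cluster 1 was the most frequent with 30 regions (26.5%, exact binomial 95% interval 18.7 to 35.7%), against 19.6% of all regions within 50 kb of a protein-coding gene. Cluster 9 followed with 25 (22.1%, 14.9 to 30.9%) against 25.6%, cluster 7 with 16 (14.2%, 8.32 to 22.0%) against 18.1% and cluster 6 with 13 (11.5%, 6.27 to 18.9%) against 12.1%. Cluster 8 had 12 (10.6%) against 9.77%, cluster 4 had 6 (5.31%) against 3.78%, cluster 2 had 5 (4.42%) against 2.45%, cluster 3 had 4 (3.54%) against 3.95% and cluster 5 had 2 (1.77%) against 4.72%. All 9 intervals held the value for coding genes at large. The order depends on the distance: within 10 kb, clusters 1 and 6 each held 17.5% of 40 regions and cluster 9 held 10.0%. These intervals treat neighbouring regions as independent and are therefore too narrow.

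The clusters differed in where they stood. Of the 15 regions of clusters 2, 3 and 4, 10 lay over a member's own start and 3 over a start of another gene (Stk38, Jmjd6 with Mettl23, and Cryzl1 with Itsn1). The 2 others were cluster 4 regions at Srsf1 and Srsf3. Clusters 1, 7 and 9 held 71 regions, none over a member's own start and 12 over a start of another gene (8 of cluster 1 and 4 of cluster 9). Over the whole table, 61.7% of the regions of clusters 2, 3 and 4 and 7.45% of those of clusters 1, 7 and 9 lay over an annotated start. Of the 76 regions with a midpoint 10 to 50 kb from the first start, 22 belonged to cluster 1 and 22 to cluster 9. These clusters held 19.6% and 25.6% of all regions within 50 kb of a protein-coding gene. Their shares in this distance band alone were not computed for other genes. Cluster 1 was present around 9 of 10 genes (63.3% of protein-coding genes), cluster 9 around 9 (67.5%), cluster 7 around 9 (57.2%) and cluster 6 around 8 (43.9%). Cluster 8 was present around 7 (48.6%), cluster 2 around 5 (19.3%), cluster 4 around 5 (27.4%), cluster 3 around 4 (28.0%) and cluster 5 around 2 (23.3%). A gene with more regions more easily has any given cluster, and the 10 genes had a median of 10 regions against 7. The presence counts were not adjusted for this. Srsf11 lacked clusters 1 and 9, Son lacked cluster 7, and Srsf1 and Srsf4 lacked cluster 6.

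**Figure D4:**
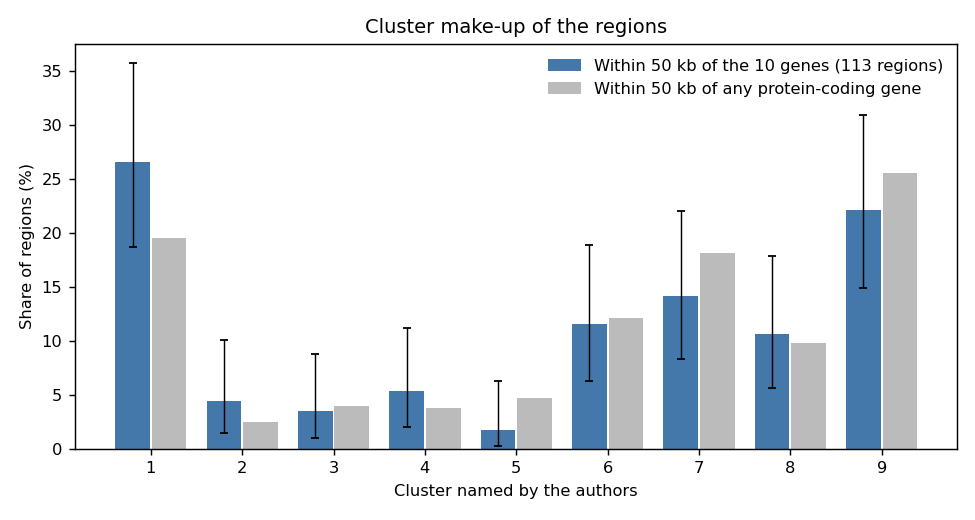
Share of regions (percent, y axis) in each of the 9 clusters (x axis) for the 113 regions within 50 kb of the 10 genes (blue, with exact binomial 95% intervals) and for all regions within 50 kb of a protein-coding gene (grey). Cluster 1 makes up 26.5% of the blue and 19.6% of the grey bars, and each interval contains the grey value.

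Placed by gene limits instead of starts, 9 of 10 genes had a region with its midpoint within 1 kb of either limit, against 60.9% of protein-coding genes. In 6 of the 10 that region belonged to cluster 2, 3 or 4, against 22.6% of protein-coding genes and 37.1% of those with a region at a limit. Srsf5 was without one because the midpoint of its wide region lay 1.19 kb inside the gene, and the same was true of the start region of Srsf1 (1.11 kb). The sets of clusters over the starts were common ones. Cluster 4 alone was found over the starts of 1539 genes besides each of Srsf1, Srsf5 and Srsf6. Cluster 3 alone was found over 1611 besides each of Son and Srsf2. Cluster 2 alone was found over 1088 besides each of Srrm2, Srsf3 and Srsf7, and cluster 8 alone over 2515 besides Srsf4. Each count leaves out only the 1 gene it is given for, so it includes the other members named with that gene. The pair of clusters 3 and 4 at Srsf11 occurred at 11 other genes. At the edge of the 50 kb rule, the last regions inside it were a cluster 2 region 49.7 kb from Son and a cluster 7 region 49.1 kb from Srsf2, and the first outside it were a cluster 8 region at 50.2 kb from Srsf5 and a cluster 3 region at 50.2 kb from Son.

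Other genes of the splicing pathway also had start regions mostly in clusters 2, 3 and 4, and the share of the speckle genes was not tested against theirs. Of 55 genes in 5 lists, 46 had an annotated start, 45 a region over it and 31 that region in cluster 2, 3 or 4 (68.9%, against 40.9% of genes with a region over the start). By list it was 8 of 12 other SR and SR-like genes, 6 of 9 kinases and phosphatases that act on SR proteins, 7 of 11 spliceosome genes, 3 of 5 genes of the exon junction complex and mRNA export, and 7 of 8 hnRNP genes. The exact binomial 95% intervals began at 34.9%, 29.9%, 30.8%, 14.7% and 47.3% in this order, so the first 4 contain 40.9%. For the 5 lists together the interval ran from 53.4% to 81.8% and did not contain it. Among the SR genes, Srsf10 was in cluster 4 and Tra2a in cluster 3, while Srsf9 was in cluster 1 and Srsf12 in cluster 9. Of the kinases that phosphorylate SR proteins, Srpk1 was in cluster 1 and Srpk2 in cluster 8, and Clk2 was in cluster 4. Clk1 had no annotated start in the table and a cluster 3 region within 1 kb of a gene limit. Of the factors that recognise the branch point and the 3′ splice site, U2af1 and Sf3b1 were in cluster 3 and Sf3a1 in cluster 1, and U2af2 had no annotated start and regions of clusters 2 and 4 at its limits. In the exon junction and export group Eif4a3 and Alyref were in cluster 3 and Magoh in cluster 5, and Rbm8a and Casc3 had no annotated start and a cluster 4 region at a gene limit. Of the other genes without an annotated start, Snrpb, Snrpd1 and Eftud2 had a cluster 8 region at a limit. Luc7l had one of cluster 5 there, and Rnps1 had clusters 3 and 4. Over the 5 lists, 34 of 50 genes with a region at a limit had one in cluster 2, 3 or 4, against 37.1% in general. Among spliceosome genes it was 8 of 15. The hnRNP genes, whose products often oppose SR proteins at exons, were in cluster 2 (Hnrnpa1, Hnrnpa2b1 and Hnrnpk) or cluster 3 (among them Hnrnpc and Ptbp1), with Hnrnpl in cluster 5.

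**Figure D5:**
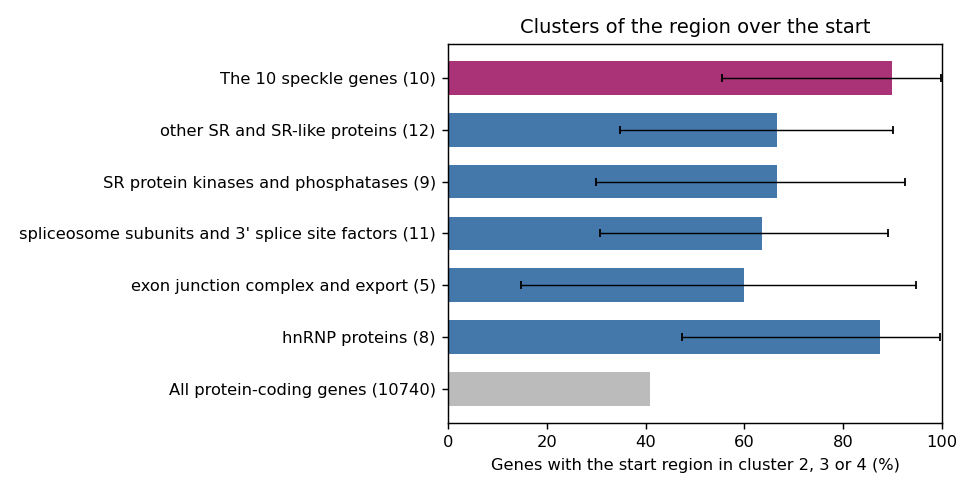
Share of genes (percent, x axis) whose region over the start belongs to cluster 2, 3 or 4, among genes with a region there (number in brackets), for the 10 speckle genes (purple), 5 lists of other splicing genes (blue) and all protein-coding genes (grey), with exact binomial 95% intervals for the lists. The speckle genes stand at 9 of 10 and the other lists between 3 of 5 and 7 of 8, and the intervals of all lists but the speckle and hnRNP genes contain the 40.9% of protein-coding genes.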

How the data were processed

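The submitters' processing notes name the mm10 build and the tools SAMtools 1.6, Picard, Bowtie2 2.3.3.1 and cutadapt 1.18. Calling, merging and clustering of regions are not described in the sources used here. The table deposited by the authors holds positions and a cluster name per region, without a value per library, so depth and precision are unknown, and no fit between groups, replicate block or left-out library could be run.

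Positions were counted from 1. Gene limits came from a RefSeq table and starts, strands and promoter letters from a RefSeq promoter table, both on GRCm38.p6. All 10 symbols matched both, as did 55 of 55 pathway entries the first. Of 21887 protein-coding genes, 17492 had a start. The table of limits names no exons, introns or UTRs. Intervals are exact binomial (Clopper-Pearson, 95%). Placement was tested on simulated regions at 342 genes, and all counts were recovered. Every member is named, pathway genes as the first 4 of each list with some added after their values were seen. Members, lists and cluster groupings were chosen with earlier results of these data known. Software was Python 3.11.15 with matplotlib 3.10.9, SciPy 1.17.1, pandas 2.3.3 and numpy 2.4.6.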

Additional observations from a re-analysis of the deposited data

How the results depend on the processing

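Of 60 values recomputed under other settings, 49 stayed near the reported ones (counts within 1.5 times, shares within their 95% interval, medians within 1 SD over genes or regions) and 11 moved. With a distance of 10 kb the 10 genes had 40 regions (median 4 per gene), of which 17.5% belonged to cluster 1 and 10.0% to cluster 9. With 100 kb the median was 16 regions per gene. Over all 49943 annotated genes instead of protein-coding ones, 37.6% had a gene-end region and 12.0% one in clusters 2, 3 or 4. The settings that follow were added after seeing the data. Taking regions with a midpoint within 1 kb of a start, 39.7% of the protein-coding genes that had one had it in clusters 2, 3 or 4, as did 8 of 9 members, with Srsf5 having none. The count of members with a cluster 6 region past the 3′ limit was 1 within 1 kb and 4 within 5 kb, against 0.743% and 3.37% of protein-coding genes. No paired analysis was possible because the table holds no value per library, and leaving out replicates was not possible for the same reason. Depth cannot be judged, so a gene without a region is not shown to be closed.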
